A study of Mus musculus with 2 samples.

Results

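Proliferating tumor macrophages were macrophages of MC38 tumors that carried RNA of the cell division machinery. They were taken from single-cell RNA sequencing of 2 libraries of live cells sorted from subcutaneous tumors, 1 from wild-type (Lmo7+/+) hosts and 1 from hosts labelled as Lmo7 knockout (Lmo7-/-). Members were chosen by unique molecular identifiers (UMIs, each counting 1 captured RNA molecule): at least 5 UMIs of C1qa, C1qb and C1qc together, 0 of Cd3e, Cd3g and Trac, at most 1 of Krt8, Krt18 and Rhox5, and at least 3 of Mki67, Top2a, Cdk1, Birc5 and Ccna2. The rule gave 1343 cells in the Lmo7+/+ library and 1163 in the library labelled Lmo7-/-, 2506 of the 25402 cells kept and of 9027 macrophages that passed the first 3 gates. Hosts of both groups were female C57BL/6 mice of 6 to 8 weeks at implantation. MC38 is a mouse colon cancer line, and its cells were implanted unedited into both hosts. The deletion was in the whole animal, so every host cell of that library was meant to carry it. The number of tumors in each library was not given in the sources used here. With 1 library per genotype no test was possible between hosts: intervals cover counting error only, and genotype, tumor and library cannot be told apart.

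Macrophages in tumors arise largely from blood monocytes, and some divide locally, a capacity known from tissue macrophages under CSF1 signalling. Division runs through G1, in which D and E cyclins switch on E2F target genes, through S phase, in which the MCM helicase opens DNA for the polymerases, and into G2 and mitosis, driven by cyclin B and the Polo and Aurora kinases. Genes of G1 and S are commonly driven by E2F sites, and genes of G2 and mitosis by a pair of promoter elements, the CCAAT box and the cell cycle homology region (CHR). LMO7 is a LIM domain protein with ubiquitin ligase activity.

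The promoters of the genes that carry the proliferating signature are shown first, as the 150 bases before the RefSeq transcript start on build GRCm38.p6. For the 5 genes of the gate and for each of the S and G2/M lists (20 genes each, used below), the 2 matched genes with the most RNA in these cells are shown. Capitals mark the box CCAAT, which reads ATTGG when it lies on the other strand, and the CHR, which reads TTTGAA, or TTCGAA on either strand, or is TTCAAA when reversed. Top2a lies on the minus strand at chr11:99024190-99024339, Mki67 on the minus strand at chr7:135716380-135716529, Pcna on the minus strand at chr2:132253181-132253330, Rrm1 on the plus strand at chr7:102441545-102441694, Cenpa on the plus strand at chr5:30666736-30666885 and Ube2c on the plus strand at chr2:164769779-164769928. Top2a encodes the topoisomerase that untangles chromosomes, Mki67 the Ki-67 antigen, Pcna the polymerase clamp, Rrm1 a subunit of ribonucleotide reductase, Cenpa the centromeric histone, and Ube2c a ubiquitin-conjugating enzyme of the anaphase-promoting complex.
Top2a: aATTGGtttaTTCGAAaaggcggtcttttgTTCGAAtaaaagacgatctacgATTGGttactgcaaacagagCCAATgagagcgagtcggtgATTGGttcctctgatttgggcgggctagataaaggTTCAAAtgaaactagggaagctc
Mki67: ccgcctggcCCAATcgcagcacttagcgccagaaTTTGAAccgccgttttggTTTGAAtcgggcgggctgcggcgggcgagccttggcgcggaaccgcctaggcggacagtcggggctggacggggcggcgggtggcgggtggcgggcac
Pcna: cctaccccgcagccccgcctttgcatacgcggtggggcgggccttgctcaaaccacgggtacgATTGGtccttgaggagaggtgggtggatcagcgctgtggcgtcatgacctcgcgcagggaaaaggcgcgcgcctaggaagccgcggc
Rrm1: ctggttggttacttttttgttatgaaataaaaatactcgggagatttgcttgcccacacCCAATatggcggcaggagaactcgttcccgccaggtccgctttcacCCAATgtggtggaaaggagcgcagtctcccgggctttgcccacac
Cenpa: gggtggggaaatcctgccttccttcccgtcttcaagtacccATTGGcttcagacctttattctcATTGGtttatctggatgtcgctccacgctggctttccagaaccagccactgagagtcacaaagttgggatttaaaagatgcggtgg
Ube2c: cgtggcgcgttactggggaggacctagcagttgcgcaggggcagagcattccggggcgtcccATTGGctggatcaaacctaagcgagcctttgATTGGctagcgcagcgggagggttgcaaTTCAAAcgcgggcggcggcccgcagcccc
In the window of 300 bases (250 before and 50 after the start), 13 of 18 matched G2/M genes held both a CCAAT box and a CHR, 72.2% against 7.70% of 27025 promoters. A CCAAT box stood in 16 of these 18 and a CHR in 14 of 18, against 37.9% and 19.4% of all promoters. E2F letters (TTTGGCGC, TTTCCCGC, TTTCGCGC or TTTGCCGC, both strands, none of which contains another motif) were in 6 of 17 matched S genes (35.3%), in 0 of 18 G2/M genes and in 2.32% of all promoters. The S genes held a CCAAT box in 10 of 17 and a CHR in 4 of 17, and of the 4 matched gate genes 3 held both and 1 held E2F letters. These matches describe the windows and say nothing of binding. Ccna2 was the gate gene not matched to this table.

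Lmo7 itself was checked first. Its RNA reached 21 UMIs (2.19 CPM, counts per 1000000 UMIs of the class) in proliferating macrophages of the Lmo7+/+ library and 22 UMIs (2.86 CPM) in those of the library labelled Lmo7-/-. In resting macrophages, those with 0 UMIs of the 5 cycle genes, it was at 5 and 8 UMIs (0.630 and 0.830 CPM). Cycling tumor cells held 363 and 208 UMIs (17.2 and 11.9 CPM), and cycling T cells 2 and 1. The log2 ratio between libraries in proliferating macrophages was 0.39 (95% interval -0.54 to 1.32), an interval that held 0. The tumor cells were unedited and members carried RNA of tumor cell genes (below), so host Lmo7 cannot be told apart from tumor Lmo7 in these counts. Which exons were deleted is not given in the sources used here, a sequenced tag can lie outside them, and this level therefore verified no genotype.

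The label was set beside macrophage genes that the rule did not use. The cycling tumor and T cells given for comparison were limited to at most 1 UMI of the 3 C1q genes. Their low levels were in part set by that limit, so the contrast with them is a description only. Csf1r, the CSF1 receptor, was at 685 and 658 CPM in proliferating macrophages of the Lmo7+/+ library and of the library labelled Lmo7-/-, against 3.71 and 3.84 CPM in cycling tumor cells and 14.7 and 11.5 CPM in cycling T cells. Adgre1 (F4/80) was at 299 CPM in each library, against at most 3.67 CPM in both other cycling types. The summed level of 18 macrophage identity genes was 20591 and 23407 CPM, against 1555 and 1478 CPM in cycling tumor cells. The cells thus carried macrophage RNA in both libraries. The marker C1qa had a UMI in 96.1% and 96.5% of members, as the gate required for the 3 C1q genes together.

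RNA of other cell types was present in a part of the members. The 6 fibroblast genes summed to 190 and 379 CPM in proliferating macrophages against 109 and 107 CPM in resting ones, with Col1a1 most abundant (86.5 and 176 CPM), and none was at 0. Cycling tumor cells held these 6 genes at 973 and 1166 CPM (Col1a1 359 and 387 CPM), so their RNA in members cannot be assigned to fibroblasts or to tumor cells. In the Lmo7+/+ library 67 members held at least 5 UMIs of these genes and in the library labelled Lmo7-/- 80, and the 10 cells with most held 40.4% and 55.1% of the counts. The 6 endothelial genes summed to 44.7 and 98.8 CPM (Pecam1 most abundant, 24.99 and 56.2 CPM) against 48.2 and 77.0 CPM in resting cells. Pecam1 was lower in members than in resting cells (38.1 and 69.8 CPM), whereas the other 5 were higher in both libraries. Of the 6, 4 were at least 2-fold higher in members of both libraries (median log2 ratios of the list 1.57 and 2.92). The 10 members with most held 38.5% and 46.4% of these counts. The 4 mast cell genes summed to 2.81 and 37.4 CPM (Kit 2.29 CPM and Mcpt4 13.7 CPM most abundant, 2 genes at 0 in the Lmo7+/+ library), and 4 cells of the library labelled Lmo7-/- held at least 5 UMIs. The 9 T cell genes outside the gate, led by Il7r, summed to 23.7 and 35.3 CPM, the 7 dendritic cell genes, led by Fscn1, to 74.98 and 93.9 CPM, the 5 natural killer cell genes to 0.937 and 4.43 CPM with 2 at 0, the 6 neutrophil genes, led by Mmp8, to 12.6 and 8.33 CPM with 2 and 4 at 0, the 4 B cell genes, led by Cd79b, to 10.3 and 8.72 CPM with 1 and 2 at 0, and the 4 hemoglobin genes to 0 and 0.260 CPM. Cycling tumor cells held the dendritic cell genes at 753 and 736 CPM, of which Fscn1 made 740 and 725 CPM. The source of Fscn1 RNA in members was not tested. Of 12 tumor cell genes, led by H19, 4 and 6 were at 0 and the sum was 19.9 and 8.98 CPM, but these genes were also low in cycling tumor cells (85.2 and 69.1 CPM). A list of 30 genes chosen from these data as high in cycling tumor cells stood at 10.0% and 11.6% of its tumor level in proliferating macrophages and at 7.34% and 6.45% in resting ones, and 14.6% and 16.3% of members were above 20% of it. The part of these cells in the results was not tested beyond leaving them out.

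Depth differed between the classes compared. The deposited tables held 98582479 UMIs over 16208 barcodes and 80648345 UMIs over 15163 barcodes, of which the members took 9602078 and 7682035. The median proliferating macrophage held 6869 UMIs and 2602 genes in the Lmo7+/+ library and 6221 UMIs and 2407 genes in the library labelled Lmo7-/-. The median resting macrophage held 4126 and 3750.5 UMIs. Dividing cells can hold more RNA, and a gate on raw UMIs also admits deeper cells, and these cannot be told apart here. Scrublet called 48 (3.57%) and 50 (4.30%) members doublets, against 41 and 35 resting cells. The 2 libraries shared 279 barcodes, 175 among cells kept and 3 among members.

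The values that chose the members were as follows, given as a description. The sum of the 5 cycle genes had a median of 8 UMIs in each library and ranged from 3 to 59 and from 3 to 51. Top2a was found in 88.1% and 89.3% of members, Mki67 in 79.9% and 72.3%, Birc5 (survivin, of the chromosomal passenger complex) in 70.1% and 68.3%, Cdk1, the mitotic kinase, in 66.7% and 68.5%, and Ccna2, its S and G2 cyclin, in 63.5% and 62.3%. All 5 genes were present in 461 (34.3%) and 362 (31.1%) members, and 41 and 36 members passed on 1 gene alone. The summed level of the 5 genes was 1680 and 1600 CPM. Mki67 was at 333 and 276 CPM, Top2a at 626 and 606, Birc5 at 278 and 263, Cdk1 at 222 and 245 and Ccna2 at 221 and 210 CPM.

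Just inside the threshold, with a sum of 3, stood 210 and 176 cells, and just outside it, with a sum of 2, 348 and 352 cells. The S list was at 2067 and 1760 CPM at 3 UMIs against 1612 and 1231 CPM at 2 UMIs. The G2/M list was at 760 and 772 CPM at 3 UMIs against 558 and 511 CPM at 2 UMIs. The 7 genes of MHC class II presentation were at 27521 and 39337 CPM at 3 UMIs against 30679 and 41326 CPM at 2 UMIs. The change over the threshold was thus gradual, and cells at 1 or 2 UMIs (1124 and 1238) were left out of the resting class. At 20 UMIs or more the G2/M list reached 2728 and 2779 CPM and the S list 2571.5 and 2487 CPM.

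**Figure D1:**
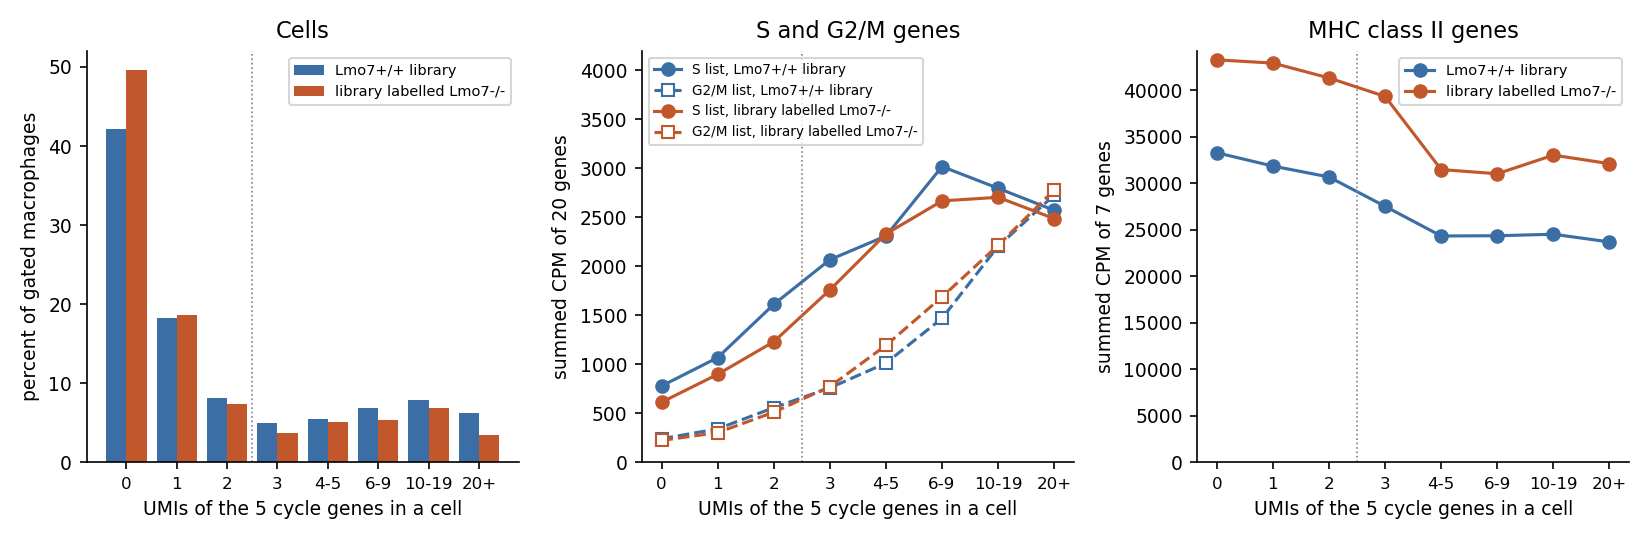
Gated macrophages by the number of UMIs of the 5 cycle genes in a cell (x axis; dotted line, threshold of 3): percent of cells (left), summed CPM of the S and G2/M lists (middle) and summed CPM of 7 MHC class II genes (right), blue for the Lmo7+/+ library and orange for the library labelled Lmo7-/-. The G2/M list is highest at 20 UMIs or more (2728 and 2779 CPM), whereas MHC class II is highest at 0 (33285 and 43270 CPM).

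Proliferating cells made up a smaller share of macrophages in the library labelled Lmo7-/-. They were 31.5% of gated macrophages in the Lmo7+/+ library (1343 of 4266, 95% Clopper-Pearson interval 30.1 to 32.9) and 24.4% in the library labelled Lmo7-/- (1163 of 4761, 23.2 to 25.7), a difference of -7.05 percentage points (Newcombe interval -8.90 to -5.20). Macrophages themselves were 31.5% of cells kept in the Lmo7+/+ library and 40.1% in the library labelled Lmo7-/-. Of all cells kept, proliferating macrophages were therefore 9.92% and 9.81%, a difference of -0.11 percentage points (-0.84 to 0.63), an interval of counting error that held 0. Resting macrophages numbered 1799 and 2360.

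After each cell was thinned to 2000 UMIs, with a limit of 2 cycle UMIs, the shares were 27.2% and 22.6%, a difference of -4.55 points (-6.51 to -2.60). The same deep cells, not thinned, gave 33.6% and 26.7%. Thinning left out 670 and 817 gated macrophages. Within 4 depth bins of equal size (limits at 2665, 4548 and 6769.5 UMIs) the share was 20.5% and 13.7% in the shallowest, 18.4% and 15.7% in the second, 25.7% and 22.0% in the third and 56.0% and 51.0% in the deepest. The share was lower in the library labelled Lmo7-/- in each bin.

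Some cells of other types passed each gate, and the source of the UMIs by which they passed was not tested. The C1q gate was passed by 7.28% and 7.73% of tumor cells with at least 10 UMIs of the tumor genes (median 23373 and 22374 UMIs) and by 15.4% and 13.6% of T cells (median 3183.5 and 2969.5 UMIs). The cycle gate was passed by 1 of 28 and 2 of 28 Ccr7 dendritic cells, a type that has left the cycle, and by 1 of 85 and 0 of 35 Ly6c2 monocytes (upper limits 6.38% and 10.0%). Their median depths were 3499.5 and 3242 UMIs and 2875 and 2138 UMIs, below that of the members. The tumor gate acted through Rhox5 alone, since Krt8 and Krt18 were near 0 in the cycling tumor cells as well.

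Against resting macrophages of the same library, proliferating macrophages had higher CPM for the whole division program, from helicase loading to cytokinesis. CPM was somewhat lower for macrophage identity, phagocytic and MHC class II genes. CPM is a share of RNA and members were deeper, so a lower CPM does not mean fewer UMIs per cell. H2-Aa had 75882 and 82423 UMIs over 1343 and 1163 members. In the 1799 and 2360 resting cells it had 83820 and 135646 UMIs. Of 12306 genes with at least 20 counts, 749 (6.09%) were at least 2-fold higher in both libraries and 52 (0.423%) at least 2-fold lower in both. The median log2 ratio of all these genes was 0.07 in the Lmo7+/+ library and 0.12 in the library labelled Lmo7-/-, and 57.2% and 61.4% of them were above 0. The counts given for each list are of genes above or below 0 in both libraries. Of all genes, at most 57.2% can be above 0 in both and at most 4749 of 12306 below 0 in both. The exact shares in both are not given. The contrast is the one that the rule used, so all values here describe it.

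The replication genes were the first group. Of 14 genes that load and fire the MCM helicase, 13 were at least 2-fold higher in both libraries, with median log2 ratios of 1.68 and 1.86. The exception was the helicase subunit Mcm4, at 0.75 and 1.02. Mcm5, another subunit, was at 148 and 130 CPM against 42.9 and 29.1 CPM in resting cells, and Cdc6, a loader, at 24.6 and 21.7 CPM against 5.04 and 2.70 CPM. All 16 DNA synthesis genes were at least 2-fold higher (medians 1.92 and 2.26). Rrm2, the regulated subunit of ribonucleotide reductase, was at 179 and 201 CPM against 12.2 and 7.57 CPM, a log2 ratio of 3.87 (3.57 to 4.18) and 4.73 (4.39 to 5.09). Pcna stood at 515 and 502 CPM against 213 and 196 CPM, with log2 ratios of only 1.28 and 1.35. Resting macrophages thus held a base level of Pcna that Rrm2 lacked.

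Histone RNA followed in part. Of 14 histone genes 10 had enough counts and 8 of these were at least 2-fold higher in both libraries. The variants H2afx (215 and 205 CPM against 28.7 and 22.0) and H2afz (908 and 950 CPM against 376 and 337) held most of it. Replication histones, whose transcripts have no poly(A) tail and are caught poorly by poly(A) capture, were low throughout. Hist1h1b was at 22.1 and 12.2 CPM and Hist1h3c at 5.94 and 6.12 CPM. The linker histone Hist1h1c was at 66.8 and 73.3 CPM against 63.9 and 67.8 CPM.

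The ratios were larger for mitosis. All 12 mitotic entry genes were at least 2-fold higher in both libraries (medians 3.83 and 4.13), among them Ccnb1, cyclin B1, at 78.6 and 81.5 CPM against 5.80 and 4.98 CPM, and Plk1, the Polo kinase, at 47.8 and 43.7 CPM against 2.90 and 1.87 CPM. All 30 spindle, kinetochore and cytokinesis genes were at least 2-fold higher (medians 3.89 and 4.06). Nusap1, a spindle protein, was at 88.7 and 85.9 CPM against 1.89 and 2.39 CPM. Cenpa had the smallest ratios of these 30, 1.52 and 1.44, with 84.0 and 89.5 CPM in resting cells. Of 8 anaphase genes 7 were at least 2-fold higher. The exception was Pttg1, securin, at 66.4 and 63.0 CPM against 72.1 and 66.0 CPM. Of 14 condensin, chromatin and tubulin genes 13 were higher by this rule, with Stmn1 (stathmin) at 614 CPM in each library against 81.3 and 59.2 CPM, and Lmnb1 (lamin B1) the exception at 250.4 and 248.9 CPM against 162 CPM in each.

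The regulators of G1 behaved less uniformly. Of 17 genes 7 were at least 2-fold higher in both libraries: the E cyclins Ccne1 and Ccne2, their kinase Cdk2, E2f2, the repressors E2f7 and E2f8, and the pocket protein Rbl1. Ccne2 was at 19.1 and 17.7 CPM against 1.64 and 0.726 CPM. The D cyclins were not among them. Ccnd1 stood at 554 and 456 CPM against 546 and 392 CPM, and Ccnd2 at 282 and 229 CPM against 332 and 288 CPM. Myc was at 46.4 and 43.9 CPM against 42.2 and 35.4 CPM.

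Inhibitors of the cyclin-dependent kinases were present in dividing cells. Cdkn1a (p21) was at 1005 and 1057 CPM against 1121 and 1193 CPM in resting macrophages, a log2 ratio of -0.16 (-0.20 to -0.12) and -0.17 (-0.22 to -0.13). In cycling tumor cells Cdkn1a was at 157 and 165 CPM and in cycling T cells at 176 and 215 CPM. Of the 7 inhibitors 3 were at least 2-fold higher in both libraries, namely Cdkn2a, Cdkn2d and Cdkn2c (p18), the last at 42.3 and 42.4 CPM against 5.17 and 3.01 CPM. The 7 together summed to 1204 and 1299 CPM, against 333 and 348 CPM in cycling tumor cells and 448 and 498 CPM in cycling T cells.

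**Figure D2:**
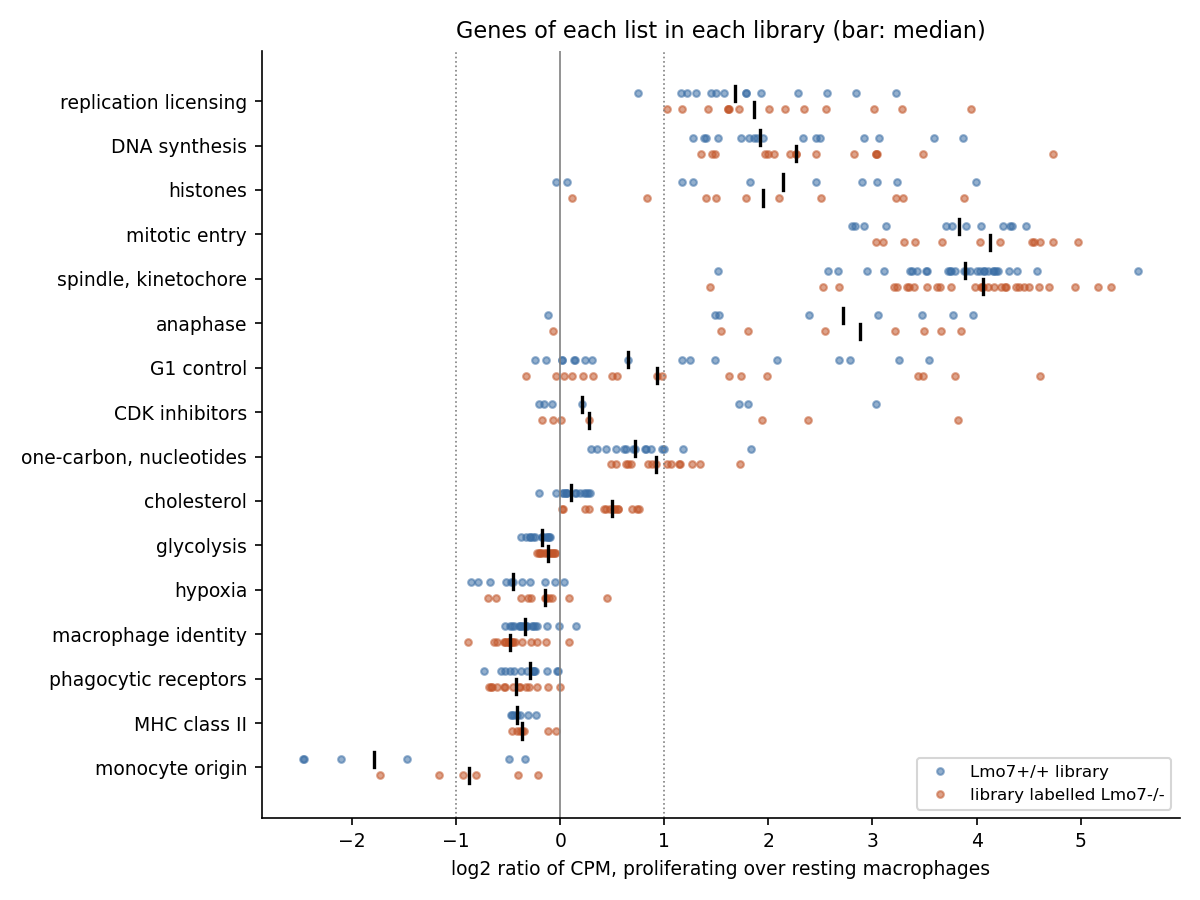
Log2 ratio of CPM, proliferating over resting macrophages (x axis), for the genes of 16 lists (rows), blue for the Lmo7+/+ library and orange for the library labelled Lmo7-/-. Each point is a gene with at least 20 counts, black bars are list medians and dotted lines mark a 2-fold ratio. Replication and mitosis lists lie to the right (mitotic entry medians 3.83 and 4.13), and all MHC class II genes lie left of 0 within the 2-fold lines, as do 17 of 18 macrophage identity genes (Cx3cr1 lies right of 0).

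Outside these lists, the genes with the highest ratios in both libraries were also known division genes for the most part. They were Nek2, a centrosome kinase, Cdca2, Pclaf, a partner of PCNA, Cep55, of the cytokinetic bridge, Shcbp1, Parpbp, Aunip and Traip, a ubiquitin ligase of replication. Pclaf was at 413 and 417 CPM against 16.4 and 15.9 CPM, with 946 and 833 members holding a UMI. Nek2 reached 28.2 and 29.4 CPM against 0.630 and 0.934 CPM (log2 ratios 5.48 and 4.98).

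Macrophage identity genes were kept at a lower share of RNA. None of 18 identity genes was 2-fold different, but 17 of 18 were below 0 in both libraries, with medians of -0.34 and -0.48 (all genes, 0.07 and 0.12). Apoe, the lipid carrier, was at 2708 and 2816 CPM against 3779 and 5202 CPM. Cx3cr1, the fractalkine receptor, was the exception, at 545 and 432 CPM against 492 and 406 CPM. Scaling by edgeR's TMM factors lowers every log2 ratio of this contrast by 0.06 and 0.11, which places these medians further below 0.

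None of 15 macrophage transcription factors was 2-fold different either. Maf was at 248.6 and 190 CPM against 282 and 257 CPM. Spi1 (PU.1) stood at 342 and 327 CPM against 353 and 360 CPM. Of 12 growth factor and receptor genes, Il34 alone was at least 2-fold higher in both, on 23 and 19 UMIs (2.40 and 2.47 CPM) against 9 and 6, with an interval that held 0 in the Lmo7+/+ library (-0.09 to 2.37). Il34 was at 15.9 and 23.5 CPM in cycling tumor cells, and the part of tumor RNA in this was not tested. Csf1 was at 25.8 and 22.8 CPM against 20.6 and 14.1 CPM, and Csf2rb at 459 and 449 CPM against 651 and 591 CPM.

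Antigen presentation genes were a lower share of RNA in dividing cells, all 7 below 0 in both libraries (medians -0.42 and -0.37). H2-Aa was at 7903 and 10729 CPM against 10569 and 14071 CPM in resting cells, and Cd74, the invariant chain, at 3104 and 4413 CPM against 4281 and 6106 CPM. The 14 phagocytic receptors with enough counts were also all below 0 (medians -0.29 and -0.43), with Lrp1 at 119 and 110 CPM against 166 and 174 CPM and Axl, nearest to 0, at 447 and 395 CPM against 456 and 397 CPM. All 7 regulatory macrophage markers named in the study were below 0 (medians -0.32 and -0.59), with Vegfa at 285 and 482 CPM against 492 and 782 CPM. Of 4 lipid-associated markers 3 were below 0, and of 8 inflammatory markers 5 were below 0 while Cxcl10 was at 682 and 779 CPM against 445 and 546 CPM. The study chose these marker lists on these samples, so their direction is no independent evidence. Of the 8 phagocytosis genes the study names, 5 were below 0 in both libraries (medians -0.01 and -0.13).

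Genes of recent monocyte origin were among those furthest below 0. Ly6c2 was at 43.5 and 36.3 CPM against 187 and 81.3 CPM, a log2 ratio of -2.10 (-2.26 to -1.95) and -1.16 (-1.37 to -0.96), and Chil3 at 3.02 and 1.56 CPM against 16.6 and 5.19 CPM. These were the 2 of 6 such genes that were at least 2-fold lower in both libraries, and all 6 were below 0 (medians -1.79 and -0.87). Hspb1, a small heat shock protein, was at 2.40 and 2.47 CPM against 10.3 and 11.9 CPM. Few members held these genes, 8 and 7 for Hspb1 and 14 and 5 for Chil3. Without the cells that held RNA of other types, the log2 ratios of Hspb1 moved from -2.11 and -2.27 to -2.18 and -3.45. The other lowest genes by the fixed rule were Tcp11l2, Dpep2 (ENSMUSG00000053687), Ly6i, Nos2, Rgs11 and Slfn5. Nos2, the inducible nitric oxide synthase, was at 15.7 and 53.0 CPM against 37.4 and 127 CPM, and Slfn5 at 85.2 and 61.7 CPM against 194 and 148 CPM.

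Of the remaining state lists, 7 of 8 type I interferon genes were below 0 in both libraries (medians -0.49 and -0.32), the exception again being Cxcl10, and 5 of 6 genes of the Ccl8 state were (medians -0.40 and -0.67). The Cd300e state was near 0 (medians 0.06 and 0.09). Among the 13 antitumor genes the study names with enough counts, 1 was at least 2-fold lower in both (Nos2) and 8 were below 0 in both. Among 6 pro-tumor genes 5 were below 0, and Cxcl13, a B cell chemokine, was the exception: it had 49 and 36 UMIs in proliferating macrophages against 0 and 5 in resting ones, a log2 ratio of at least 3.75 in the Lmo7+/+ library when 3 counts over the resting class are taken as the floor.

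Metabolic genes split by pathway. All 15 genes of one-carbon metabolism and nucleotide synthesis were above 0 in both libraries (medians 0.72 and 0.92), and Shmt1 and Psat1 passed the 2-fold rule in both. Shmt2, the mitochondrial serine hydroxymethyltransferase, was at 120 and 101 CPM against 65.8 and 46.1 CPM. Cholesterol synthesis and uptake genes were above 0 in 12 of 14 (medians 0.10 and 0.50), in the Lmo7+/+ library close to the median of all genes (0.07). Cycling tumor cells held the one-carbon list at 2648 and 2630 CPM and the cholesterol list at 2106 and 2078 CPM. The part of tumor RNA in the ratios of these lists was not tested beyond leaving out cells with most of it. All 13 glycolysis genes with enough counts were below 0 (medians -0.18 and -0.12), and 8 of 11 hypoxia genes were (medians -0.45 and -0.15). Early response and heat shock genes, which tissue dissociation raises, had 3 of 11 above and 5 of 11 below 0 in both (medians -0.12 and -0.01).

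Against the other cycling cells of these tumors, chosen with the same cycle gate, proliferating macrophages had lower CPM of mitotic entry and anaphase genes than tumor cells. The DNA synthesis and spindle lists lay nearer to each other. The 16 DNA synthesis genes summed to 1967 and 1895 CPM, against 1822 and 1972 CPM in cycling tumor cells (1302 and 1076 cells) and 3185 and 3224 CPM in cycling T cells (113 and 180 cells). The 30 spindle genes summed to 2366 and 2284 CPM, against 2512 and 2669 CPM and 3289 and 3466 CPM. The 12 mitotic entry genes summed to 568 and 559 CPM against 753 and 807 CPM in tumor cells, and the 8 anaphase genes to 1106 and 1111 CPM against 1577 and 1690 CPM. The 17 G1 regulators differed more, at 1564 and 1383 CPM against 4906 and 4174 CPM in tumor cells, of which Ccnd1 made 3559 and 2904 CPM. One-carbon genes summed to 1013 and 858 CPM against 2648 and 2630 CPM in tumor cells. Sums of CPM depend on the total RNA of each cell type, and median depths were 15424 and 15591 UMIs in cycling tumor cells and 4114 and 4318.5 in cycling T cells.

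Most members carried S and G2/M transcripts together. After thinning to 2000 UMIs (1210 and 1053 members left), at least 2 UMIs of both lists were found in 53.3% (50.4 to 56.1) and 57.9% (54.9 to 60.9) of members. The S list alone was found in 24.8% and 20.3%, the G2/M list alone in 16.4% and 15.8%, and neither in 5.45% and 5.98%. In resting macrophages both lists were found in 2.92% and 2.38%, the S list alone in 34.4% and 26.4% and neither in 56.2% and 64.6%. In cycling tumor cells 57.3% and 63.9% held both. These are ranges of a count and no cell types, and 50.5% and 47.7% of members lay within 1 UMI of a limit. Without thinning 85.0% and 85.6% of members held both lists.

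Outside these lists the E cyclins fell along the ranges, and other genes did not all run in order. Hist1h1b was highest with both lists (30.3 and 17.8 CPM), above the S list alone (14.2 and 7.15) and the G2/M list alone (10.6 and 4.11). Ccne2, the G1/S cyclin, was at 26.3 and 36.4 CPM in members with the S list alone, 22.4 and 17.4 CPM in those with both and 0.663 and 2.47 CPM in those with the G2/M list alone. Ccne1 was at 43.0 and 37.1, 38.3 and 36.1, and 7.30 and 5.75 CPM. Of these 3 ranges H2afx was lowest with the S list alone, at 104 and 103, 267 and 248, and 283 and 241 CPM. The Cdk1 cyclin Ccna2, of the gate, was at 110 and 111 CPM, 271 and 254 CPM and 265 and 222 CPM. Cdkn1a varied little, from 965 to 1021 CPM over these 3 ranges in the Lmo7+/+ library and from 1029 to 1143 CPM in the library labelled Lmo7-/-. MHC class II genes were at 25576 and 33605, 23028 and 31785, and 26454 and 34174 CPM.

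**Figure D3:**
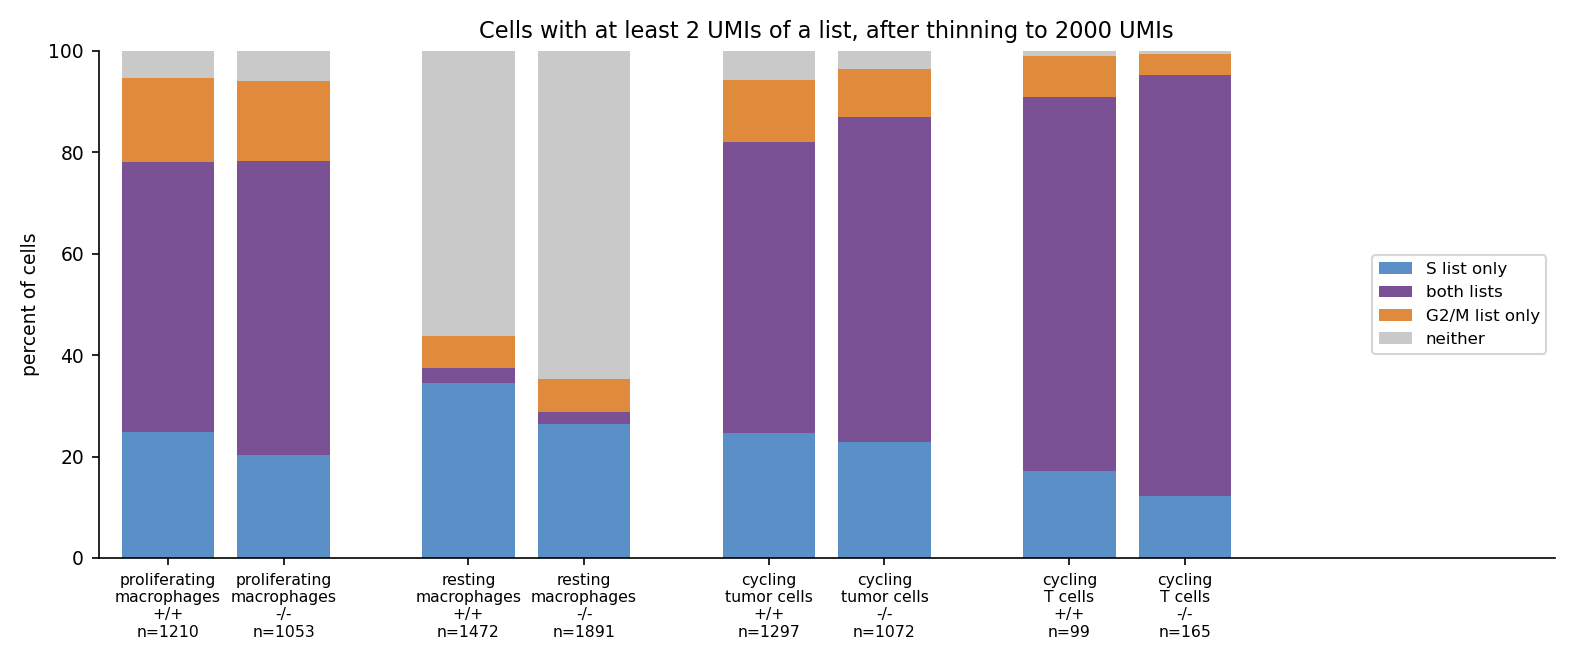
Percent of cells (y axis) with at least 2 UMIs of the S list only, of both lists, of the G2/M list only or of neither, after thinning to 2000 UMIs, for 4 classes of cells in the Lmo7+/+ library (+/+) and the library labelled Lmo7-/- (-/-). Both lists are found in 53.3% and 57.9% of proliferating macrophages and in 2.92% and 2.38% of resting ones.

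The share of dividing cells was next compared between macrophage states, after thinning to 2000 UMIs and with a limit of 2 cycle UMIs. It was lower among macrophages with most MHC class II RNA than among those with least, and lower with genes of the Ccl8 state than without. In the top 25% of cells by MHC class II UMIs, 15.1% (12.9 to 17.6) of cells in the Lmo7+/+ library and 11.4% (9.47 to 13.5) in the library labelled Lmo7-/- were dividing. In the bottom 25% the shares were 37.4% (34.2 to 40.6) and 34.1% (31.2 to 37.2). The median cell of the top 25% held 5012 and 4811 UMIs before thinning and that of the bottom 25% 5419 and 4955.5.

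For the other lists, cells with at least 2 UMIs of a list were set against cells with 0. For genes of monocyte origin the shares were 23.7% and 19.8% with and 29.3% and 24.4% without, and at 3000 UMIs the difference in the library labelled Lmo7-/- was -2.30 points (-5.82 to 1.27). For the Ccl8 state they were 22.2% and 17.6% with and 28.1% and 25.7% without. Type I interferon genes gave 29.3% and 23.0% with and 25.1% and 21.8% without, a difference of 4.17 points (0.82 to 7.48) in the Lmo7+/+ library and of 1.12 (-1.89 to 4.09) in the library labelled Lmo7-/-. With at least 4 UMIs of the list the former was 3.81 (-0.18 to 7.88), and at 3000 UMIs the latter was 3.70 (-0.07 to 7.32). Cxcl10 was the member of this list that was above 0 in dividing cells. With Cxcl10 left out, an alternative chosen after the data were seen, the shares were 25.3% and 18.9% with and 28.9% and 24.3% without. The differences were then -3.64 (-7.04 to -0.15) and -5.38 points (-8.38 to -2.26). Leaving out the gene that was above 0 tends to lower these differences by construction, so they are a description only.

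Cd300e state genes (Cd300e, Fcrl5, Xcr1 and Klra17) gave 28.4% with and 27.0% without in the Lmo7+/+ library, an interval that held 0 (-5.18 to 8.95 points). In the library labelled Lmo7-/- the shares were 29.6% and 21.8%, a difference of 7.80 points (3.44 to 12.5), which was 3.40 (-3.72 to 12.01) with at least 4 UMIs of the list and 3.15 (-0.95 to 7.44) at 3000 UMIs. Whether the libraries differ in this was not tested. Any of these lists competes with cycle genes for the 2000 UMIs of a thinned cell, and the part of this in the shares was not tested.

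**Figure D4:**
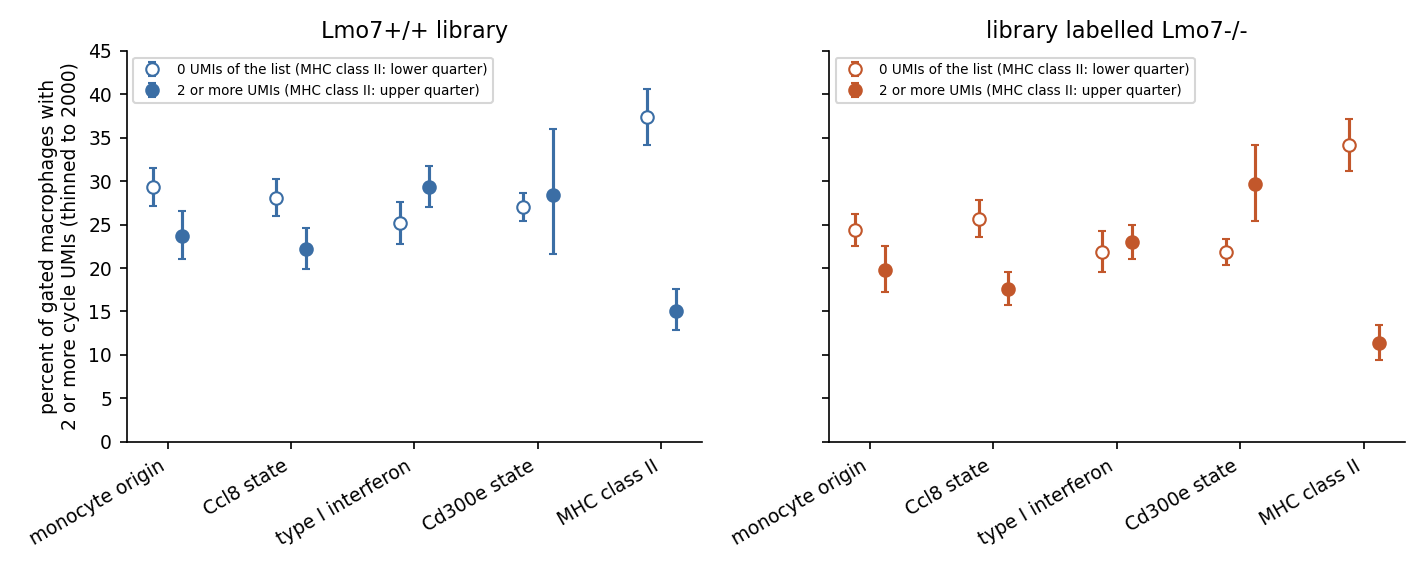
Percent of gated macrophages with at least 2 cycle UMIs after thinning to 2000 UMIs (y axis), for cells with 0 (open) and at least 2 UMIs (filled) of each state list, or the bottom (open) and top (filled) 25% by MHC class II UMIs. Bars are 95% Clopper-Pearson intervals. The MHC class II classes, which are split by rank and not by a UMI limit, lie at 37.4% and 15.1% in the Lmo7+/+ library and at 34.1% and 11.4% in the library labelled Lmo7-/-.

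Between libraries, proliferating macrophages of the library labelled Lmo7-/- held more RNA of all 7 MHC class II genes and of 11 of 12 antitumor genes named in the study, each among genes with enough counts. Of 11587 genes with at least 20 counts, 226 (1.95%) were at least 2-fold higher in the library labelled Lmo7-/- and 121 (1.04%) at least 2-fold lower. The median log2 ratio of all these genes was -0.05, and that of the 11222 genes tested in resting macrophages was -0.10. Of all 11587 genes 41.7% were above 0 in proliferating macrophages, which is the background for the counts above 0 given for each list. Without the 80 and 87 members that held fibroblast, endothelial or mast cell RNA or few myeloid UMIs, an alternative chosen after the data were seen, 111 genes were higher and 161 lower, and without the cells above 20% of the tumor level, also chosen after the data were seen, 120 were higher and 174 lower, so that the larger number of higher genes turned into a smaller one under both.

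Division genes are described here and not compared, since the same limit on cycle genes admitted the members of both libraries. None with enough counts was 2-fold different. The medians were -0.16 for helicase loading (2 of 14 above 0), -0.09 for DNA synthesis (1 of 16), 0.01 for mitotic entry (6 of 12) and -0.04 for spindle genes (12 of 30). In resting macrophages the same medians were -0.43, -0.34, -0.31 and -0.21. Rrm2 was at 179 and 201 CPM, and Ccnb1 at 78.6 and 81.5 CPM. Mki67, which chose the members, was at 333 and 276 CPM.

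Of 12 antitumor genes named in the study with enough counts, 4 were at least 2-fold higher in the library labelled Lmo7-/- and 11 were above 0, with a median of 0.88 (1.02 in resting macrophages). Nos2 was at 15.7 CPM in the Lmo7+/+ library and 53.0 CPM in the library labelled Lmo7-/-, a log2 ratio of 1.75 (1.48 to 2.03). Ccl5, a T cell chemokine, was at 83.7 and 191 CPM (1.19, 1.06 to 1.31), Cxcl1, a neutrophil chemokine, at 110 and 231 CPM (1.07, 0.96 to 1.18), and Fcgr4, an activating Fc receptor, at 287 and 595 CPM (1.05, 0.98 to 1.12). Cxcl9, a T cell chemokine induced by interferon gamma, was at 722 and 1404 CPM, and Il18bp, which binds IL-18, at 61.1 and 120 CPM, both just under 2-fold. The study named these genes from these libraries, so their direction is no independent evidence.

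All 7 MHC class II genes were above 0 (median 0.40), with H2-Aa at 0.44 (0.43 to 0.46) and Cd74 at 0.51 (0.49 to 0.53). In resting macrophages the same 7 had a median of 0.33, with H2-DMb1 at 415 and 409 CPM. All 4 genes of the Cd300e state were above 0 and 2 of these passed 2-fold, Xcr1, a chemokine receptor, at 15.5 and 59.6 CPM and Klra17 at 55.5 and 117 CPM. Of 14 phagocytic receptors Fcgr4 alone passed 2-fold, and Lrp1 was at 119 and 110 CPM, a log2 ratio of -0.11 (-0.24 to 0.02). Cd274, which encodes PD-L1, was at 113 and 208 CPM.

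All 11 hypoxia genes were above 0 (median 0.44, and 0.31 in resting cells), with Adm, adrenomedullin, past 2-fold on 8 and 17 UMIs and Vegfa at 285 and 482 CPM. Cholesterol genes were all 14 below 0 (median -0.20, and -0.56 in resting cells). Monocyte genes were below 0 in all 5 with enough counts (median -0.28), and 12 of 13 glycolysis genes were above 0 (median 0.18). One-carbon genes had a median of -0.25 with 4 of 15 above 0, and 13 of 18 identity genes were above 0 (median 0.04), with Lyz2, lysozyme, at 2093 and 3020 CPM. For macrophage transcription factors the median was -0.06 with 7 of 15 above 0, for the interferon list -0.21 with 1 of 8, and for the stress list -0.22 with 3 of 11.

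**Figure D5:**
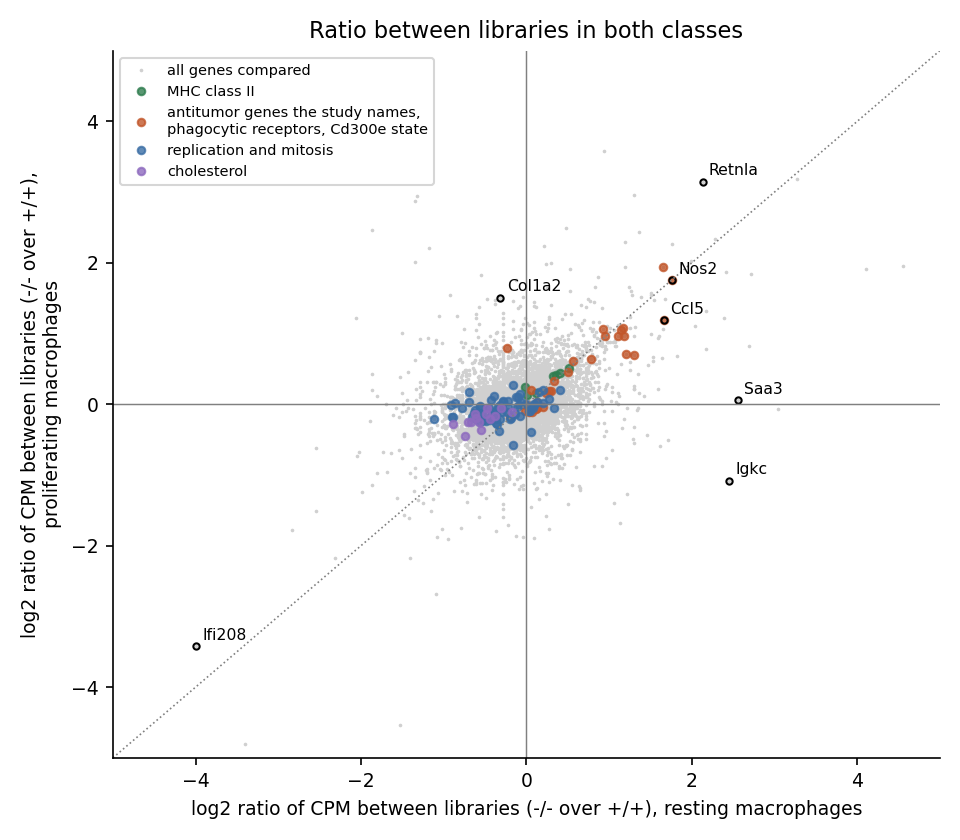
Log2 ratio of CPM between libraries (library labelled Lmo7-/- over Lmo7+/+) in resting (x axis) and proliferating macrophages (y axis) for 11063 genes with at least 20 counts in each class (grey), with genes of 4 groups in color and 7 genes named. The dotted line marks equal ratios; Nos2 lies near it (1.76 and 1.75), Igkc and Saa3 below it and Col1a2 above it.

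The genes with the highest ratios between libraries, among those with at least 100 counts, were mostly held by a few cells. Mcpt2, Tpsb2, Cma1 and Mcpt4, mast cell proteases, had 2, 0, 0 and 5 UMIs in members of the Lmo7+/+ library against 233, 126, 105 and 105 UMIs for members under the knockout label, all of the latter in at most 5 cells each. Timp3 (11 and 102 UMIs) and Rgs5 (19 and 113 UMIs), known from stromal cells, had 99.0% and 100% of the latter counts in 10 cells, and Ubd (19 and 182 UMIs) had 84.1%. Retnla, a gene of alternatively activated macrophages, had 121 and 858 UMIs (log2 ratio 3.15, 2.87 to 3.43), of which 1 cell held 58.7% and 85.2%. Without the cells that held RNA of other types, Timp3 was at 2 and 2 UMIs, Rgs5 at 6 and 4 and Retnla at 120 and 856. Ubd was then at 16 and 29 UMIs, which moved its log2 ratio from 3.58 to 1.21.

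The genes with the lowest ratios differed in how their counts were spread over cells. For Mid1 the 10 cells with most held 15.6% and 21.4% of the counts in members, whereas for Lyz1 they held 61.0% and 90% and for Cbr2 68.5% and 87.5%. Ifi208, an interferon-inducible gene of a family with close copies, was at 18.1 and 1.69 CPM in members, with a UMI in 135 and 11 cells, and at 13.2 and 0.830 CPM in resting macrophages. Lyz1, a near copy of Lyz2 whose reads can be split between both, was at 29.4 and 6.51 CPM. Fcrls was at 106 and 44.5 CPM, a log2 ratio of -1.25 (-1.43 to -1.07), and in resting macrophages at 102 and 62.2 CPM. The others were Mid1, Cd37, Tm4sf5, Slc39a10 and Cbr2, with log2 ratios between -1.35 and -1.15.

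The ratio between libraries differed by at least 1 on the log2 scale between proliferating and resting macrophages in 366 of 11063 genes (3.31%), and the median difference of all genes was 0.05. Among genes with at least 100 counts in each class, the largest differences upward by the fixed rule were for matrix genes, Postn (2.00, 1.37 to 2.63), Col1a2 (1.82, 1.42 to 2.23), Col4a1 (1.66, 1.10 to 2.22) and Bgn (1.40, 0.79 to 2.00), and for Rusc2 (1.31, 0.56 to 2.05). In the library labelled Lmo7-/- 10 cells held between 75.1% and 84.7% of the counts of these 4 matrix genes, and without the cells that held RNA of other types the difference was 0.48 for Postn, 0.14 for Bgn and -0.076 for Col4a1, none of which was used to remove the cells.

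Under the same limit of 100 counts in each class, the largest differences downward were for Igkc, an immunoglobulin chain (-3.53, -4.17 to -2.89), Saa3, an acute phase gene (-2.50, -3.08 to -1.92), Gdf15 (-1.79), Zfp472 (-1.10) and Cracr2b (-1.09). Igkc was at 9.89 and 4.69 CPM in members against 10.97 and 60.0 CPM in resting macrophages. Saa3 was at 20.2 and 21.1 CPM in members, with 61.3% and 63.6% of its counts in 1 cell, against 4.67 and 27.5 CPM in resting ones. Monocyte genes had a median difference of 0.53 (5 genes), fibroblast genes of 0.82 (6), cholesterol genes of 0.34 (14) and helicase loading genes of 0.29 (14), and the Ccl8 state ran the other way at -0.38 (5). The value for helicase loading genes is a description only, since the cycle gate chose both classes. Idi1, of cholesterol synthesis, was at 100.5 and 54.3 CPM in resting cells and at 112 and 91.9 CPM in proliferating ones.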

How the data were processed

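Live cells of MC38 tumors were profiled by droplet single-cell RNA sequencing, 1 library per host genotype. The deposited matrices hold UMI counts per gene and barcode, made by the authors with Cell Ranger 2.1.1 on build mm10 per the submitters' processing notes. Barcodes under 500 genes or 1000 UMIs, or above 15% UMIs of mt- genes, were dropped, and proliferating, resting, tumor and T cells were taken by gates on raw UMIs. Doublets were called with Scrublet in Scanpy 1.11.5 and kept in the values. Counts were summed per class and library and divided by the class total (CPM), and log2 ratios were given with exact binomial intervals, shares with Clopper-Pearson and their differences with Newcombe intervals, all at 95%. Genes needed at least 20 counts over both classes or libraries compared, and called means at least 2-fold. A floor of 3 counts stood in for a class at 0. With 1 library per group no p-value was computed. TMM factors came from edgeR 4.0.16 in R 4.3.3, and everything else from Python 3.11.15 with SciPy 1.17.1, NumPy 2.4.6, pandas 2.3.3 and matplotlib 3.10.9. The computation was tested on simulated data.

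The members and gene lists were chosen with earlier results of these data known. Beside the lists, the genes named were the 8 highest and the 8 lowest in proliferating over resting cells (outside the cycle and gate lists) and between libraries, with at least 100 counts, and the 5 largest differences each way, without mitochondrial, ribosomal, Gm and Rik genes. Alternatives covered the count minimum, the cycle gate, thinning, TMM scaling, Scrublet doublets and cells with RNA of other types. Depth was 98582479 and 80648345 UMIs. UMI intervals and floors cover counting error only. Some genes and a gene list are not reported here.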

Additional observations from a re-analysis of the deposited data

Results flagged for a closer look

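Among the genes of the lists and those named by the fixed rule, opposite directions are given only where both 95% intervals of counting error excluded 0. Genes of opposite signs with an interval that held 0 are not given. For 7 genes the ratio between libraries (library labelled Lmo7-/- over Lmo7+/+, log2) pointed one way in proliferating and the other way in resting macrophages, and none of these differences was tested across samples. The difference was -3.53 for Igkc (-1.08 in proliferating and 2.45 in resting cells), 2.00 for Postn (0.72 and -1.28), 1.66 for Col4a1 (1.05 and -0.61), 0.91 for Fscn1 (0.21 and -0.70), 0.86 for Rrm2 (0.17 and -0.69), 0.23 for H2afz (0.07 and -0.16) and -0.19 for Itgam (-0.07 and 0.12). Fscn1 was at 740 and 725 CPM in cycling tumor cells, and the part of tumor RNA in its ratios was not tested. Rrm2 and H2afz belong to the cycle lists, and the cycle gate chose both classes, so their values are a description only. For Postn and Col4a1, 10 cells of the library labelled Lmo7-/- held 84.7% and 81.2% of the counts in proliferating macrophages, and without the cells that held RNA of other types their ratios in proliferating cells were -1.18 and -0.54, the same direction as in resting cells (-1.66 and -0.47).

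By the same limit, for 4 genes the ratio of proliferating over resting macrophages pointed opposite ways in the libraries, again with no test of the difference. The difference was -2.50 for Saa3 (2.11 in the Lmo7+/+ library and -0.38 in the library labelled Lmo7-/-), 0.86 for Hspa1a (-0.41 and 0.46), 0.18 for Fos (-0.12 and 0.05) and -0.15 for Cxcl9 (0.07 and -0.08). Hspa1a encodes a heat shock protein and Fos an early response transcription factor. After scaling by edgeR's TMM factors 6 of these 11 genes kept opposite directions with both intervals off 0, and 5 did not. Fos was then below 0 in both libraries (-0.18 and -0.051), and an interval held 0 for Cxcl9 in the Lmo7+/+ library (0.013), Itgam in proliferating cells (-0.024), and H2afz (-0.065) and Col4a1 (-0.51) in resting cells.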

How the results depend on the processing

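No paired analysis was possible because each genotype had 1 library. Named genes gave 733 values under the alternatives, of which 7 reversed and 53 moved, and gene lists gave 608, of which 0 reversed and 8 moved. With no minimum beyond the floor, 613 genes were at least 2-fold higher in the library labelled Lmo7-/-, 432 lower and 1031 differed between classes. With at least 50 counts, where fewer genes are tested, these were 87, 53 and 109, and 29 genes were at least 2-fold lower in proliferating cells of both libraries. Without cells with RNA of other types 111 genes were higher (94 of them also higher with all cells), and without cells with tumor RNA 120 (88 shared). With cells thinned to 2000 UMIs, shallower cells left out and a limit of 2 cycle UMIs, 3 choices changed together, the difference in share was -4.55 in place of -7.05 points. At 3000 UMIs the S only, G2/M only, both and neither ranges held 19.2%, 8.85%, 68.7% and 3.16% of Lmo7+/+ members and 16.1%, 10.9%, 69.5% and 3.46% of the others. With at least 4 UMIs of a state list, differences in share became -14.2 and -11.1 points for monocyte genes, -9.29 and -11.5 for the Ccl8 state and 3.40 (-3.72 to 12.01) for the Cd300e state (library labelled Lmo7-/-). At 3000 UMIs they were -26.4 for MHC class II (Lmo7+/+) and, in the library labelled Lmo7-/-, 3.15 (-0.95 to 7.44) for the Cd300e state and -2.30 (-5.82 to 1.27) for monocyte genes, and without cells with tumor RNA -18.3 for MHC class II (Lmo7+/+). Reversed were the class differences of Bgn after thinning (-0.39) and without tumor RNA (-0.17), Col4a1 without other types (-0.076) and without tumor RNA (-0.63) and Col1a2 without tumor RNA (-0.42), and, without other types, the library ratios of Mcpt4 (-1.97), itself among the genes used to remove those cells, and Rgs5 (-0.23). The library ratios in proliferating cells of Postn (-1.18), Col4a1 (-0.54) and Bgn (-0.14) also turned below 0 without other types. Without Cxcl10, the list gene above 0 in dividing cells, left out after the data were seen, the interferon list reversed to -3.64 and -5.38 points. That choice tends to lower the differences by construction. Where no construction is named, the cause was not tested. MHC class II was split by rank and was not run at 4 UMIs. Low counts limit Lmo7 and the mast cell genes.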
